A study of Homo sapiens with 12 samples.

Results

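The genes described here are 10 genes of the cornified envelope and its control: SPRR2A, SPRR2D, SPRR2F, SPRR1A, SPRR1B, SPRR3, CNFN, PI3, GRHL3 and CRABP2. All probes that the platform annotation assigns to one of these symbols were taken, which gave 13 of the 47323 probes on the array and 10 of its 20046 named genes. The genes were selected on their measured signals and detection p-values in these same knockdown and control arrays, so their group differences are a description and not independent support. The first group was PANC-1, an established human line of pancreatic ductal carcinoma, carrying the lentiviral vector pLKO.1 with 1 hairpin directed at TIMP1 (6 arrays, TIMP1 knockdown). The other group was PANC-1 carrying the puro form of the same vector without that hairpin (6 arrays, control, titled WildType). Both groups were grown with puromycin, and there was no group with a hairpin against another target. The labels do not say whether the lines were clones or pools, or whether replicates 1 to 6 of a group were separate cultures. The p-values therefore reflect only how far these arrays spread, and that spread may be technical.

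Small proline-rich (SPRR) proteins are soluble precursors that transglutaminases crosslink into the cornified envelope, the protein shell that replaces the plasma membrane of dying cells at the surface of stratified epithelia. Their genes lie side by side on chromosome 1 in the epidermal differentiation complex, with those of involucrin, loricrin and many S100 proteins. A duct epithelium does not cornify. In mice, Sprr2 genes are also known to be induced in simple epithelia under stress or inflammation, including bile ducts and gut.

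Levels are normalised log2 intensities. A probe counted as detected on an array when its detection p, read here as set against the array's negative controls, was under 0.05. It was tested when detected on at least 6 of the 12 arrays. This held for 16495 probes. Of all 47323 probes, tested or not, 15898 to 17680 were detected on a knockdown array and 15681 to 16565 on a control array. TIMP1 was lower on every knockdown array than on any control array, at 13.56 ± 0.06 in the knockdown and 13.75 ± 0.07 in the control (SD, n = 6 each), a separation downwards that 0.546% of detected probes share. Its difference of -0.19 ± 0.04 (SE) did not pass the adjusted threshold (limma adjusted p = 0.101). The labelled cell type was checked on duct epithelial markers: EPCAM, KRT7, KRT8, KRT18 and KRT19 were detected on all 12 arrays. Among markers of other cells, PTPRC, COL1A1, COL3A1 and INS were detected on none of the 12, and CD68, PECAM1 and PRSS1 on all 12. In RNA from a whole culture, more cells expressing a gene and more RNA per cell cannot be told apart.

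Of the 13 probes, 8 were tested, 1 for each of 8 genes. In the knockdown SPRR2A, SPRR2D and SPRR2F rose past an adjusted p of 0.05 (limma, with Benjamini-Hochberg adjustment over all detected probes), and no tested probe of these genes was called lower. Over all detected probes 0.303% were called, 0.255% higher and 0.0485% lower. Since these arrays also chose the genes, nothing is read from that contrast. SPRR2A was detected on 6 knockdown and 2 control arrays, so it entered the test through the knockdown arrays alone, and its call gives no support for a rise from a measured control level. The other 5 tested genes, SPRR1A, CNFN, PI3, GRHL3 and CRABP2, did not pass. The median log2 fold change of the 8 tested probes was 0.30, beside 0.01 over all detected probes. SPRR1B and SPRR3, the other pair of genes, were detected on 0 arrays of either group.

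The 3 genes that rose belong to the SPRR2 subfamily, several of whose members are near-identical copies. The sequences around the start sites are shown to compare some of these copies. The windows of SPRR2A and SPRR2F, 250 bases before to 50 after the annotated start (RefSeq, GRCh38.p14), are set beside that of SPRR2B, a copy not detected here, and of SPRR1A, which was detected and did not pass. Capitals mark matches to an octamer (ATTTGCAT), an AP-1 motif (TGANTCA) and a TATA box (TATAAA), each searched on both strands.
SPRR2A: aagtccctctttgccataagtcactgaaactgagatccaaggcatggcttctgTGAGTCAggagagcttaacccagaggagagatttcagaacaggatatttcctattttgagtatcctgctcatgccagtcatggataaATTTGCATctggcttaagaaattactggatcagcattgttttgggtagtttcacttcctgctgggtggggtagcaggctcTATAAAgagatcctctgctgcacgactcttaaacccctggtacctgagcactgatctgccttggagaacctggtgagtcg
SPRR2F: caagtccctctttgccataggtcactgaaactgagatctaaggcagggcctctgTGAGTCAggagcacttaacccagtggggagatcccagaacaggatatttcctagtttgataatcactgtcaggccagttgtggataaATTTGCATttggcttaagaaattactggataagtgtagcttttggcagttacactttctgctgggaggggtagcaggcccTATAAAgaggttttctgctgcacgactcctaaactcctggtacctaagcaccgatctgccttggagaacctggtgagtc
SPRR2B: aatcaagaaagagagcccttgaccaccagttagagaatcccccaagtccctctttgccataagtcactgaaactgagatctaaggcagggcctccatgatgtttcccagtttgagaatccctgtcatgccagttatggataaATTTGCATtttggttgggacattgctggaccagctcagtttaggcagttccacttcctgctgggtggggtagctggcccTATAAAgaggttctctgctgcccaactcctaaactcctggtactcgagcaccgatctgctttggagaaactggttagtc
SPRR1A: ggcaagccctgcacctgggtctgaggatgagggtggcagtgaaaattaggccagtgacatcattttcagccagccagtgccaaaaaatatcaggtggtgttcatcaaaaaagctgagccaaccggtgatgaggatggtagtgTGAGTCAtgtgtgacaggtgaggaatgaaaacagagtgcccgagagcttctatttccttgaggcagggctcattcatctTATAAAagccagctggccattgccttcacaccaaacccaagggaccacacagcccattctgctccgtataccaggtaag

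The windows lie at chr1:153057463-153057762, chr1:153113467-153113766 and chr1:153071562-153071861 on the minus strand and at chr1:152983831-152984130 on the plus strand. Aligned over 299 bases, SPRR2A and SPRR2F were identical at 87%. SPRR2A and SPRR2B were identical at 84.4% of 257 aligned bases, and SPRR2A and SPRR1A at 43.7% of 293. Not all SPRR2 windows were this close: SPRR2G, also undetected, was identical to SPRR2A at 53.2%, to SPRR2F at 55.6% and to SPRR2B at 52.2% of aligned bases. For comparison, SPRR2A was identical to CNFN, GRHL3 and CRABP2, which are not SPRR genes, at 46%, 44.1% and 42.1% of aligned bases. The value for SPRR1A thus lay at the level of genes outside the family. The octamer was found in SPRR2A, SPRR2F and SPRR2B and not in SPRR1A, and 1.77% of all 35116 windows hold it. The AP-1 motif was found in SPRR2A, SPRR2F and SPRR1A and not in SPRR2B, and 7.71% of all windows hold it. Windows not shown did not split this way by detection. Those of the undetected SPRR1B, SPRR3 and SPRR2G held the AP-1 motif, and that of the undetected SPRR4 did not. The windows of the tested CNFN, GRHL3 and CRABP2 held no AP-1 motif. All 4 windows shown held a TATA box, as did 11.5% of all windows. The Grainyhead motif AACCNGTT, searched because GRHL3 is a Grainyhead factor, was found in SPRR2B alone of these 4, and 1.73% of all windows hold it. An ETS-type motif (AGGAAG, in 33.6% of all windows) was found in SPRR2A and SPRR2B. A strict pattern for the interferon-stimulated element (in 3.57% of all windows) had no match in any of the 4. Looser forms of this element were not searched, so these windows are not shown to lack it. No motif overlapped another in SPRR2A or SPRR2F. A match is a run of letters and not a binding site. The table held windows for 8 of the 10 genes; SPRR2D and PI3 had none.

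SPRR2A encodes an envelope precursor and was measured by 1 probe. Its log2 intensity was 7.08 at the lowest, 7.76 at the median and 8.03 at the highest in the knockdown, against 6.30, 6.60 and 6.90 in the control. The groups did not overlap: the lowest knockdown array was knockdown 1, at 7.08, and the highest control array was control 6, at 6.90. The probe was detected on all 6 knockdown arrays and on 2 of 6 control arrays, so its place among the tested probes came from the knockdown arrays, and on 4 of the 6 control arrays it was not detected. In the deposited signal, before background correction, it ran from 313 to 414 in the knockdown and from 228 to 277 in the control. The log2 fold change was 1.07 ± 0.15 (SE, n = 6 per group), with a 95% confidence interval of 0.75 to 1.39 (limma adjusted p = 0.0192). These values set the knockdown against a control level that was mostly not measured, and uncorrected signals gave a log2 fold change of 0.54.

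SPRR2D, the SPRR2 gene next to SPRR2A on the chromosome, had 2 probes. A rise was seen on 1 of them, and the other was mostly not detected. On probe ILMN_2191967, detected on all 12 arrays, the log2 intensity was 8.39, 8.72 and 8.80 (lowest, median and highest) in the knockdown, against 7.66, 7.90 and 8.40 in the control. Of the knockdown arrays, 5 lay above every control array; knockdown 1, at 8.39, lay just under control 6, at 8.40. Its log2 fold change was 0.75 ± 0.12 (SE; 95% confidence interval 0.50 to 1.00; limma adjusted p = 0.0342), or 0.50 without background correction. On probe ILMN_1746322, detected on 2 knockdown arrays and 1 control array and so not tested, the log2 intensity was 5.96, 6.33 and 7.06 in the knockdown and 6.11, 6.33 and 6.70 in the control. The means of that dim probe were 6.42 in the knockdown and 6.36 in the control, and the groups overlapped throughout.

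SPRR2F had 1 probe, detected on all 6 knockdown arrays and 5 of 6 control arrays. Its log2 intensity was 7.28, 7.70 and 7.84 in the knockdown, against 6.45, 6.94 and 7.18 in the control. The groups did not overlap. The log2 fold change was 0.76 ± 0.12 (SE; 95% confidence interval 0.49 to 1.02; limma adjusted p = 0.0403), or 0.39 without background correction. Separation of all knockdown from all control arrays, as for SPRR2A and SPRR2F, held in either direction for 1.56% of all detected probes, and upwards for 1.02%. Because several SPRR2 transcripts are near-identical, the signal of each of these probes may come in part from another copy; the probe sequences were not used here and cross-hybridisation was not tested.

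**Figure D1:**
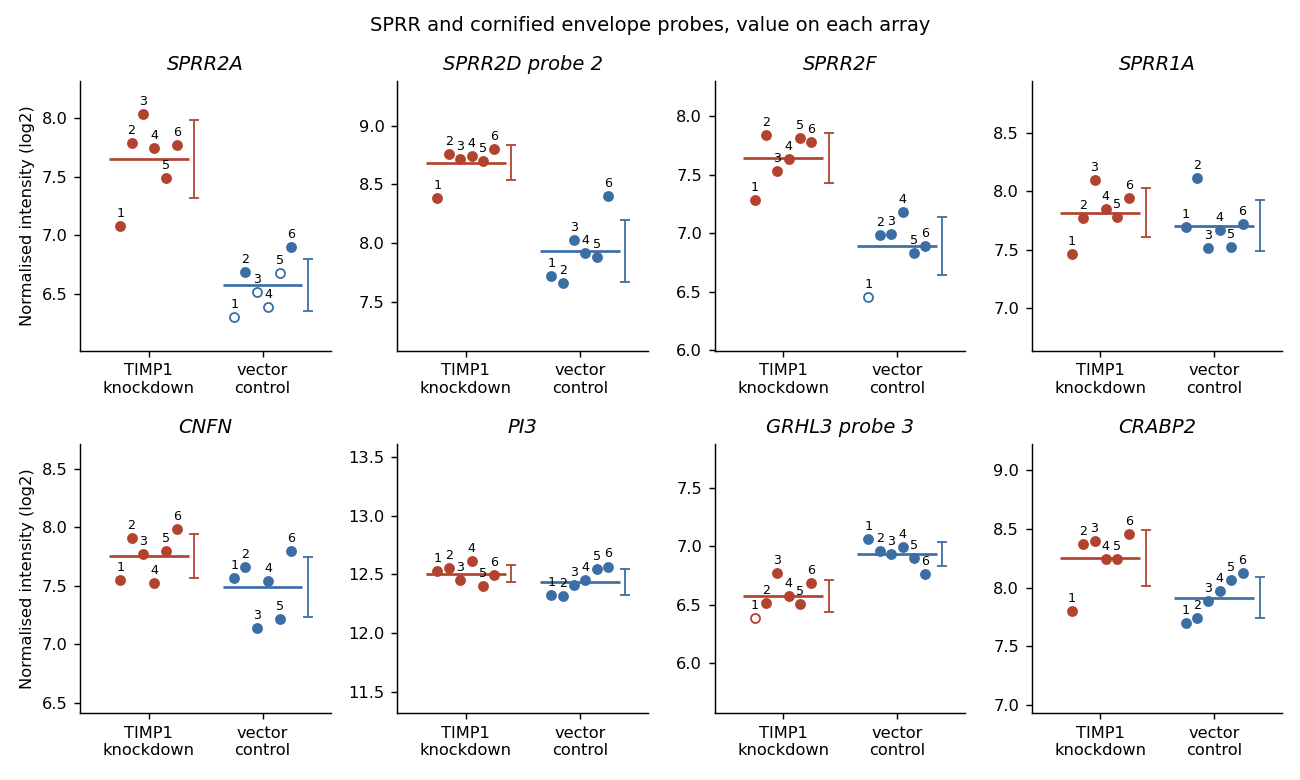
Normalised log2 intensity of the 8 tested probes on each array, TIMP1 knockdown (red) left of vector control (blue); numbers are replicates, lines are means, bars are SD (n = 6), and open points had a detection p of 0.05 or more. SPRR2D probe 2 is ILMN_2191967 and GRHL3 probe 3 is ILMN_2388874. Each axis spans the same range; SPRR2A and SPRR2F do not overlap between groups, and knockdown 1 is the lowest knockdown array for SPRR2A, SPRR2D, SPRR2F, SPRR1A, GRHL3 and CRABP2.

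The calls on the SPRR2 genes depended on single arrays through their adjusted p more than through their size. Without knockdown 1 or without control 6 all 3 stayed past the threshold, and without any other single array (control 1 to 5, knockdown 2 to 6) none did. Over the 12 fits that each left out 1 array, the log2 fold change of SPRR2A ran from 0.99 to 1.19, with an adjusted p between 0.00389 and 0.0658. The same ranges were 0.70 to 0.84 and 0.00704 to 0.0951 for SPRR2D, and 0.67 to 0.83 and 0.0094 to 0.104 for SPRR2F. Knockdown 2 and 6 had the most detected probes of all arrays. Without both, the log2 fold changes were 1.00 for SPRR2A, 0.70 for SPRR2D and 0.67 for SPRR2F, and none was called. When each array's number of detected probes entered the fit as a covariate they were 0.98, 0.70 and 0.62, again with none called.

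SPRR1A encodes an envelope precursor of another SPRR subfamily. Its 1 probe was detected on all 12 arrays, with a log2 intensity of 7.47, 7.81 and 8.10 in the knockdown and 7.51, 7.68 and 8.11 in the control. The groups overlapped over nearly their whole range, and the highest array of all was control 2. It differed by 0.11 ± 0.11 on the log2 scale (SE), with a 95% confidence interval of -0.14 to 0.36 (limma adjusted p = 0.684). SPRR1B had a log2 intensity of 5.79, 5.87 and 6.37 in the knockdown and 5.73, 5.86 and 6.10 in the control, all below the detection threshold. SPRR3 had 5.33, 5.41 and 5.44 in the knockdown and 5.31, 5.37 and 5.47 in the control, also below it on every array. No fold change is given for these 2 genes, since neither group gave a measured level.

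Along the SPRR region detection was patchy. In chromosome order from involucrin (IVL), SPRR1A, SPRR2D, SPRR2A and SPRR2F were detected in this stretch, with the undetected SPRR3, SPRR1B, SPRR2B and SPRR2E between them. SPRR4, the pseudogene SPRR2C and SPRR2G, at the edges, were detected on 0 arrays. IVL, an early scaffold of the envelope, and LORICRIN, its most abundant protein in epidermis, were also detected on 0 of 12 arrays; the lowest detection p was 0.0623 for IVL and 0.281 for LORICRIN. SPRR2B had mean log2 intensities of 5.55 in the knockdown and 5.54 in the control, and SPRR2E had 5.67 in the knockdown and 5.68 in the control. The copies next to those that rose thus gave no measured level in either group.

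**Figure D2:**
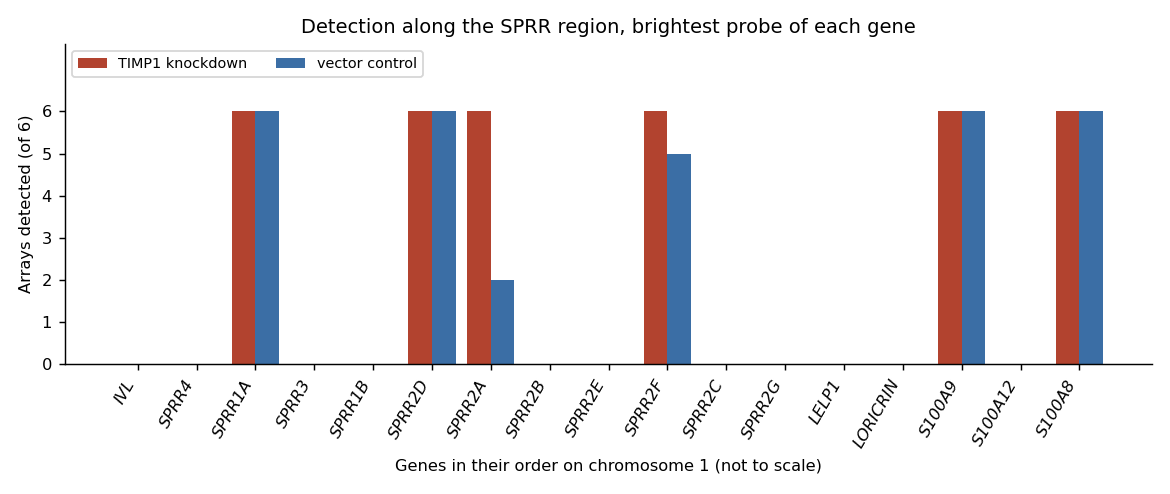
Number of arrays, of 6, on which the brightest probe of each gene was detected (detection p under 0.05), for TIMP1 knockdown (red) left of vector control (blue), with genes in chromosome order and not to scale. SPRR2A is detected on 6 knockdown and 2 control arrays; IVL, SPRR4, SPRR3, SPRR1B, SPRR2B, SPRR2E, SPRR2C, SPRR2G, LELP1, LORICRIN and S100A12 are detected on none.

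CNFN encodes cornifelin, a small protein of the cornified envelope. Its log2 intensity was 7.52, 7.78 and 7.98 in the knockdown and 7.14, 7.55 and 7.80 in the control. Of the knockdown arrays 2 lay above every control array, and the groups overlapped. The difference was 0.27 ± 0.12 (SE; 95% confidence interval 0.01 to 0.53), which did not pass (limma adjusted p = 0.334). It was 0.15 without background correction.

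PI3 encodes elafin, an inhibitor of neutrophil elastase and proteinase 3 that transglutaminases anchor to the envelope. Its probe had a detection p of 0 on every array and a log2 intensity of 12.41, 12.51 and 12.61 in the knockdown, against 12.32, 12.43 and 12.57 in the control. The log2 fold change of 0.07 ± 0.05 (SE) had a 95% confidence interval of -0.05 to 0.19 (limma adjusted p = 0.567). Its deposited signal ran from 5660 to 6632 in the knockdown and from 5045 to 6145 in the control. Median scaling in place of quantile normalisation moved PI3 to 0.20, while it moved the median of all detected probes to 0.12, so PI3 lay 0.08 above that median.

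GRHL3 encodes a Grainyhead transcription factor, known from mice to be needed for the epidermal barrier and for expression of transglutaminase 1. It had 3 probes. On ILMN_2388874, the 1 that was tested, the log2 intensity was 6.39, 6.55 and 6.77 in the knockdown, against 6.77, 6.95 and 7.06 in the control. Of the knockdown arrays 5 lay below every control array, and knockdown 3, at 6.774, met control 6, at 6.766. The probe was detected on 5 of 6 knockdown and all 6 control arrays. The log2 fold change was -0.36 ± 0.07 (SE; 95% confidence interval -0.51 to -0.21), which did not pass (limma adjusted p = 0.0554). It passed with cyclic loess (-0.41, adjusted p = 0.0223), without control 6 (-0.40, adjusted p = 0.0407) and without knockdown 1 (-0.32, adjusted p = 0.0487), and was -0.17 without background correction. The other 2 probes were detected on 0 arrays. They averaged 5.55 in the knockdown and 5.58 in the control (ILMN_1662961), and 5.37 in the knockdown and 5.38 in the control (ILMN_1782141). The difference thus rests on 1 dim probe.

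CRABP2 encodes a cytosolic protein that carries retinoic acid to its nuclear receptors; retinoic acid is known to restrain cornification. Its log2 intensity was 7.80, 8.31 and 8.46 in the knockdown and 7.69, 7.93 and 8.13 in the control, with detection on all 12 arrays. Of the knockdown arrays 5 lay above every control array, and knockdown 1, at 7.80, lay within the control range. The difference was 0.34 ± 0.11 (SE; 95% confidence interval 0.09 to 0.58; limma adjusted p = 0.221). Without knockdown 1 it was 0.43 and passed (adjusted p = 0.043).

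**Figure D3:**
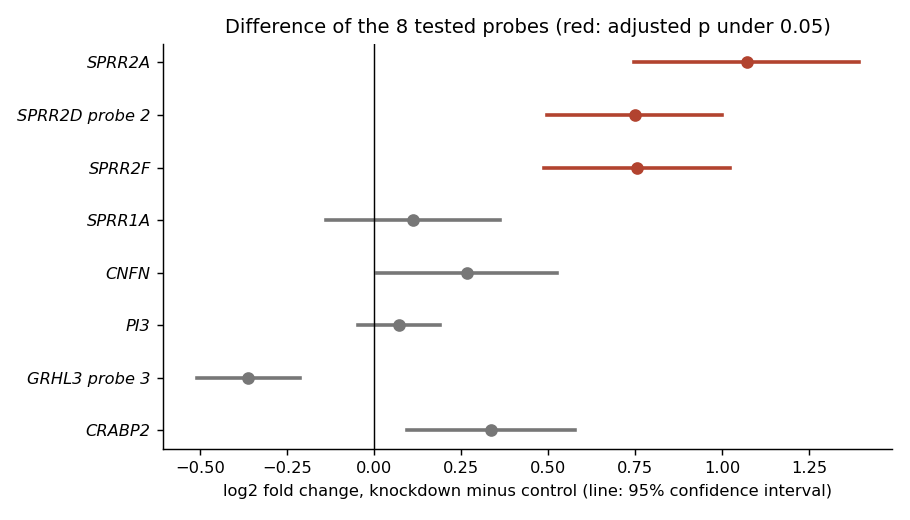
Log2 fold change, knockdown minus control, of the 8 tested probes with 95% confidence intervals from limma; red marks an adjusted p under 0.05. SPRR2A at 1.07, SPRR2D at 0.75 and SPRR2F at 0.76 are past the threshold, and GRHL3 at -0.36 lies on the other side of 0.

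The direction of each of the 8 differences was the same under every background correction and scaling tried, and their size was not. For SPRR2A the log2 fold change was 0.54 without background correction, 0.71 with a plain normexp correction, 1.02 with cyclic loess, 1.13 with median scaling and 0.54 on the authors' processed values. For SPRR2D these were 0.50, 0.58, 0.71, 0.84 and 0.50, and for SPRR2F 0.39, 0.50, 0.71, 0.82 and 0.39. The 3 genes were called under each of these settings.

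**Figure D4:**
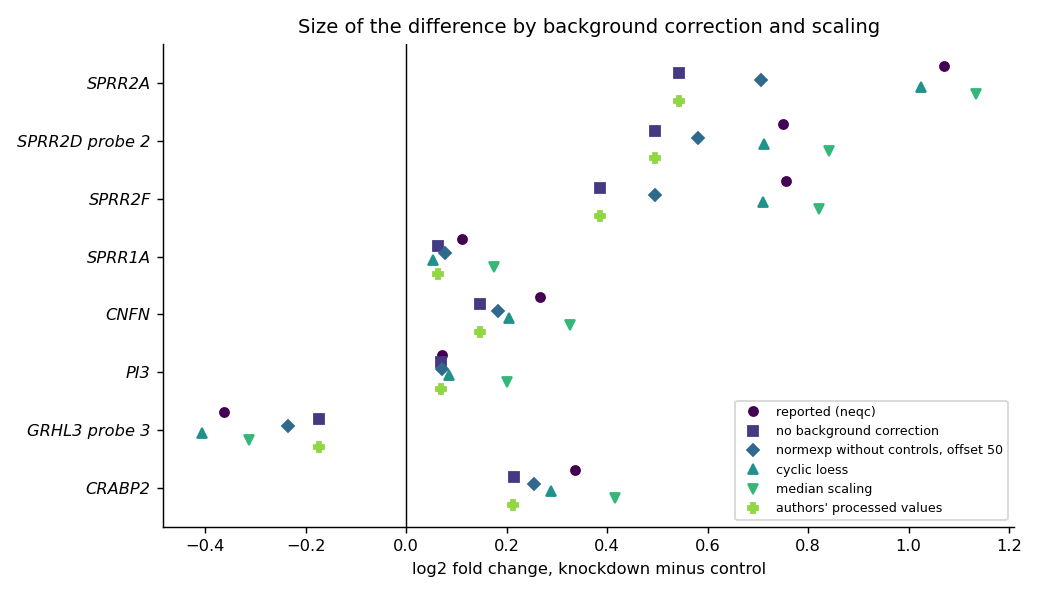
Log2 fold change, knockdown minus control, of the 8 tested probes under the reported neqc processing and 5 other background corrections or scalings. Each probe stays on its side of 0; values without background correction and from the authors' table coincide and are the closest to 0 for SPRR2A, SPRR2D, SPRR2F and GRHL3.

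The other genes of cornification and of the regulators named above were taken from 10 lists, chosen with earlier results of these data known. Of their 198 genes, 185 had a named probe, 70 were tested by their brightest probe, and 2 rose, S100A8 and S100A9. None was called lower. Over all 9780 tested genes 0.389% were called. An unadjusted p under 0.05 (limma), counted for the lists below, was held by 14.5% of all detected probes. The median log2 fold change of the 70 genes was 0.02, and over all tested genes it was also 0.02. Leaving out control 6 or knockdown 1 gave 2 calls among the listed genes, leaving out control 2, control 5 or knockdown 2, 3, 5 or 6 gave 1, and leaving out control 1, 3 or 4 or knockdown 4 gave 0. Values below are log2 fold changes from limma.

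S100A8 and S100A9 form calprotectin, a calcium-binding and zinc-binding dimer made by stressed keratinocytes and neutrophils, and lie in the same complex as the SPRR genes. S100A9 had a log2 intensity of 10.89, 11.23 and 11.46 in the knockdown, against 9.99, 10.31 and 10.65 in the control, and rose by 0.93 ± 0.12 (SE; adjusted p = 0.0169). S100A8 had 7.87, 8.46 and 8.79 in the knockdown, against 7.07, 7.33 and 8.01 in the control, and rose by 1.06 ± 0.17 (adjusted p = 0.0403). The groups did not overlap for S100A9, a separation upwards that 1.02% of all detected probes share. They did overlap for S100A8, where control 6 was the highest control array. Of the other S100 genes of the complex 8 were tested and none passed, with S100A3 at 0.12 and S100A11 at 0.09.

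Late envelope proteins were nearly all undetected. Of 36 further genes, among them the other SPRR genes, filaggrin, hornerin, repetin and the late cornified envelope family, 33 were detected on 0 arrays, 2 on 1 to 5 arrays, and 1 was tested. That gene, SMCP, lies in the complex but encodes a sperm mitochondrial protein, and had 0.18 (adjusted p = 0.662). Of 14 envelope scaffold and crosslinking genes 6 were tested and none passed (2 at an unadjusted p under 0.05). Desmoplakin (DSP) had 0.23, CYSRT1 0.28, annexin ANXA1 0.07 and the transglutaminase TGM2 0.01.

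Cell junctions and keratins gave no calls. Of 11 desmosome genes 5 were tested, 0 of them at an unadjusted p under 0.05, with the desmosomal cadherins DSG2 at -0.13 and DSC3 at -0.26, PKP2 at 0.13 and JUP at 0.10. Of 23 keratins 7 were tested (1 at an unadjusted p under 0.05), with KRT80 at 0.09, KRT7 at 0.11, KRT19 at 0.13 and KRT18 at -0.05. Of 14 lipid barrier and tight junction genes 6 were tested. Of these 6, 3 had an unadjusted p under 0.05 (limma), beside 14.5% of all detected probes. Claudin CLDN1 had -0.14, the ceramide glucosyltransferase UGCG 0.10, TJP1 -0.10 and the lipoxygenase ALOXE3 -0.34. ALOXE3 was detected on 3 of 6 knockdown and 4 of 6 control arrays.

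Among protease inhibitors related to PI3 by domain or by role in epidermis, 4 of 18 genes were tested and none passed (1 at an unadjusted p under 0.05). SERPINB8 had 0.28 and SERPINB1 -0.10, and SLPI and WFDC3, which share the WAP domain with PI3, had 0.06 and -0.03. Of 14 kallikreins and other proteases of the cornified layer 3 were tested and none passed (1 at an unadjusted p under 0.05). All 3 values were below 0: the membrane protease prostasin (PRSS8) had -0.72 ± 0.30 (SE), KLK11 -0.60 ± 0.28 and KLK10 -0.10 ± 0.19. The spread within the knockdown was wide, with PRSS8 between 6.36 and 8.01 there, against 7.57 to 8.76 in the control. PRSS8 was detected on 5 of 6 knockdown and 6 of 6 control arrays, so its knockdown values include an array without a measured level.

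Of 26 transcription factors of epidermal differentiation 15 were tested and none passed (1 at an unadjusted p under 0.05). KLF4 had 0.15 ± 0.06, and of the 6 tested AP-1 subunits FOS, JUN and JUNB had 0.32 ± 0.15, 0.07 ± 0.04 and 0.18 ± 0.12 (SE). The other AP-1 subunits, FOSL1, JUND and FOSL2, had -0.06, 0.02 and 0.0047. FOS was detected on 5 of 6 knockdown and 1 of 6 control arrays. JUN was higher on every knockdown array than on any control array, a separation upwards that 1.02% of all detected probes share. JUN lay between 10.869 and 11.02 in the knockdown, against 10.79 to 10.869 in the control, so the groups nearly met. Of 27 genes that bind, metabolise, sense or respond to retinoids, the pathway of CRABP2, 14 were tested and none passed. Of these 14, 4 had an unadjusted p under 0.05 (limma), beside 14.5% of all detected probes. The retinol dehydrogenase RDH10 had 0.17 ± 0.05, the receptors RARA and RXRA 0.20 ± 0.06 and 0.10 ± 0.04, and RARRES2, which encodes chemerin, -0.29 ± 0.10 (SE). Of these 14 genes 7 lay above 0 and 7 below it.

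**Figure D5:**
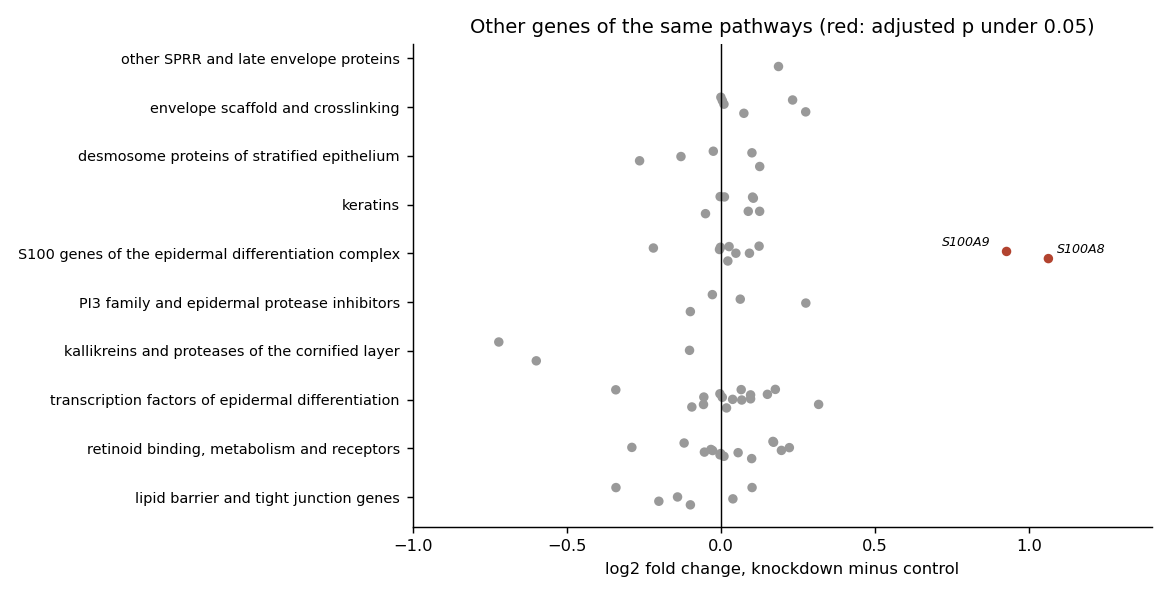
Log2 fold change, knockdown minus control, of the 70 tested genes in the 10 lists, 1 point per gene and list (TGM2 is in 2 lists), with vertical position within a row arbitrary; red marks an adjusted p under 0.05. S100A9 at 0.93 and S100A8 at 1.06 stand apart, and the other points lie between -0.72 and 0.32.

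The arrays also differed within the groups. The mean deviation from the group mean over the 8 probes was -0.30 on knockdown 1 and between -0.02 and 0.13 on the other knockdown arrays, and it ran from -0.13 on control 1 to 0.16 on control 6 in the control. Single genes did not all follow this mean: PI3 on knockdown 1, at 12.53, lay above its knockdown mean of 12.51, and GRHL3 was at its lowest control value, 6.77, on control 6 and at its highest, 7.06, on control 1. Of 9747 other genes, the 5 whose deviations followed this mean most closely over the 12 arrays were SSH2, IFNAR2, ENPP4, PRAG1 and TRIM37, with Pearson coefficients of 0.899, 0.891, 0.891, 0.890 and 0.888. Without knockdown 1 these were 0.838, 0.809, 0.771, 0.787 and 0.823. These coefficients describe arrays that share hybridisation and normalisation, and none of the 5 genes passed the group test.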

How the data were processed

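Total RNA of 12 PANC-1 samples was measured on Illumina bead arrays, and groups and replicate numbers came from the sample titles. The authors deposited a non-normalised table with a linear signal intensity of each probe, from 98.3 to 19220, and a detection p-value for each probe and array, per the file headers; no source used here states the software or how that p-value was made. The processed table of the authors held quantile-normalised intensity on a linear scale, not centred: it equalled a quantile normalisation of the signal to within a relative difference of 3.33e-10, with a median of 188.8 in each column. Per the submitters' processing notes limma was used; its role is not stated there. No pair of arrays was identical (0 pairs).

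Signals were background corrected and quantile normalised with neqc of limma 3.58.1 in R 4.3.3, the negative controls being estimated through the detection p-values, and an offset of 16, and taken to log2. The offset pulls differences of dim probes towards 0. Probes detected (p under 0.05) on at least 6 of 12 arrays were tested with lmFit and eBayes on the group term, two-sided, with Benjamini-Hochberg adjustment over all 16495 of them and a threshold of 0.05. Gene symbols came from the platform annotation, updated by gene number for 30074 of 30113 probes with 1 symbol through a RefSeq table of GRCh38.p14; 8 probes had several symbols and 17202 were unnamed here. A listed gene was represented by its brightest tested probe. Named were all 10 genes, TIMP1, in each list each gene past the threshold and up to 4 with the smallest p, and the 5 genes most alike over the arrays. The genes, lists and tests were chosen with earlier results of these data known. Start-site windows were aligned with Biopython 1.88, and figures were drawn with matplotlib 3.10.9. The fit was also run on simulated data with independent noise for each probe and array. Those data held no effect shared by the probes of an array, so that run does not cover such effects. The number of arrays limits the precision.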

Additional observations from a re-analysis of the deposited data

Results flagged for a closer look

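In 7 of 32 groups of 6 arrays (13 probes of the genes described, S100A8, S100A9 and TIMP1, in each group) the highest or lowest array stood apart from the others by more than Dixon's critical value, and chance flags about 1 group in 20. Knockdown 1 was low for SPRR2D on ILMN_2191967, at 8.386 with the next knockdown array at 8.701, and for CRABP2, at 7.801 with the next at 8.241. Control 6 was high for S100A8, at 8.014 with the next control array at 7.373, and control 2 was high for SPRR1A, at 8.113 with the next at 7.721. The other flags fell on probes that were not detected: knockdown 6 for SPRR1B at 6.371, knockdown 4 for GRHL3 on ILMN_1662961 at 5.749 and control 4 for GRHL3 on ILMN_1782141 at 5.276.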

How the results depend on the processing

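Of the 13 probes, 3 were called, of the listed genes 2 and of all detected probes 50. Leaving out 1 array at a time gave between 0 and 5, between 0 and 2, and between 1 and 145 calls. The probes of these genes called were 1 without a detection filter, 0 with detection p under 0.01 on all 12 arrays, 0 at an adjusted p under 0.01, and 0 both without knockdown 2 and 6 and with the number of detected probes as a covariate, the last 2 settings chosen after seeing the data. The strict detection filter kept 1 of the 13 probes, that of PI3. Listed genes called were 1 without a filter, 1 with the strict filter, 0 without knockdown 2 and 6 and 0 with the covariate. All probes called were 32 with cyclic loess, 11 with median scaling, 11 without a filter, 90 with an intensity trend and robust fit, 2 without knockdown 2 and 6, 0 with the covariate and 1 at an adjusted p under 0.01. SPRR1A reversed to -0.019 with the covariate; no other of the 8 differences changed direction in any setting. Apart from the construction of the filters and thresholds, the causes were not tested. Over all detected probes, same-numbered arrays of the 2 groups deviated together with correlations between -0.11 and 0.194. Of 12 arrays, 3 correlated best with their own number. Whether same-numbered arrays share a culture or batch was not tested, and weak correlations over all probes cannot decide it. With the replicate block the SE fell from 0.15 to 0.11 for SPRR2A and from 0.12 to 0.08 for SPRR2F. It also fell for SPRR2D, CRABP2 and CNFN, and it rose for SPRR1A, PI3 and GRHL3. That block gave 3 calls among these genes, 2 among listed genes and 28 in all. Dim probes such as those of SPRR2A, SPRR2F and GRHL3 lie near the background, which limits the precision of their fold changes.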
